A study of Mus musculus with 6 samples.

Results

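The enzymes that turn arachidonic acid into eicosanoids were followed as a set of 10 genes, *Alox12*, *Alox5*, *Alox5ap*, *Lta4h*, *Ltc4s*, *Ptgs1*, *Ptgs2*, *Tbxas1*, *Hpgds* and *Pla2g4a*. They were taken by symbol from the 34573 genes of the count table. The rule uses no measured value, but the set was chosen with earlier results of these data known, so it is not a blind list. All 10 were found in the table, and 9 of them had enough reads for a test, *Ptgs2* being the exception. RNA was sequenced from Lin-CD48-CD150+ hematopoietic stem cells (HSCs) sorted from the bone marrow of *Rpl22*-/- mice, which lack the ribosomal protein Rpl22 in the germline and so in every tissue, and of *Rpl22*+/+ controls, both young adults backcrossed to C57BL/6 with no other allele or treatment. Each genotype gave 3 libraries of polyadenylated RNA. Nothing in the labels says whether the 3 came from separate animals, so p-values measure only the spread between these libraries, which may be technical. The comparison asks how the RNA of these enzymes differs in HSCs without Rpl22, a question that the study raised for *Alox12* in particular, since Rpl22 binds RNA stem-loops in addition to its place in the large ribosomal subunit.

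Eicosanoids are short-lived lipid signals. Cytosolic phospholipase A2 (*Pla2g4a*) frees arachidonic acid from membranes, the cyclooxygenases (*Ptgs1* and *Ptgs2*) convert it to prostaglandin H2, and thromboxane synthase (*Tbxas1*) and hematopoietic prostaglandin D synthase (*Hpgds*) act on that product. The lipoxygenases open the other branch. *Alox5*, helped by its membrane partner *Alox5ap*, makes leukotriene A4, which *Lta4h* hydrolyses to leukotriene B4 and *Ltc4s* joins to glutathione as leukotriene C4, whereas *Alox12*, the platelet-type enzyme, makes the hydroperoxide that is reduced to 12-HETE. In blood these enzymes are best known from platelets, megakaryocytes, mast cells and myeloid cells.

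Because the study chose its RNA probes for Rpl22 binding from *Alox12* mRNA, the coding sequence of each enzyme was searched for a simple stem-loop, defined as 6 bases, a loop of 6 bases and the exact reverse complement of the first 6. These sizes were set after the probes had been read, so the count for *Alox12* is a description and no independent support. *Alox12* held 4 such stem-loops in its 1989 coding bases, or 2.01 per kb, against 0.315 per kb over the coding sequences of 21877 genes. Of those genes 34.0% held at least 1, and 1.33% held at least as many as *Alox12*. Among 1662 coding sequences within 10% of its length the latter share was 0.722%. *Alox5*, *Lta4h*, *Ptgs2* and *Tbxas1* held 1 each and the other 5 enzymes 0, which says only that these letters were not met. The 4 of *Alox12* lie in exons 2, 5, 7 and 12 of 14, on the reverse strand of chromosome 11 in GRCm38, the assembly also named mm10. They are shown with 6 bases on each side. All 4 were found by the search rule used here, whereas the study predicted 2 Rpl22 sites in this coding sequence. None of the study's *Alox12* probes holds the stem of exon 2 or that of exon 5. The stem in exon 7 is in the study's probe BS1 and that in exon 12 in its probe BS2. In the study's gel-shift assay Rpl22 bound BS2 and did not bind BS1. Capitals mark the paired arms, and the sequences are of GENCODE release M21 transcripts.
*Alox12* exon 2, chr11:70254539-70254568: ctgcagTTTGTGaaactgCACAAAcagcac
*Alox12* exon 5, chr11:70252801-70252830: atcagaTCTTCTggggccAGAAGAgtgcct
*Alox12* exon 7, chr11:70251538-70251567: tatcctGCTGGAtggaatTCCAGCtaatgt
*Alox12* exon 12, chr11:70243005-70243034: cctcacCATGTGtgttttCACATGcactgc
No folding energy was computed, and read counts carry no information on binding or translation.

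The promoters of *Alox12* and *Alox5* are given as well, as those of the 2 lipoxygenases that had enough reads for a test. Both come from RefSeq on GRCm38.p6, where 9 of the 10 enzymes had a promoter sequence, and run from 250 bases before the start of the gene to 50 after it. Capitals mark the GC box GGGCGG, the letters searched on both strands for the Sp and KLF factors.
*Alox12*, chr11:70255321-70255620, reverse strand: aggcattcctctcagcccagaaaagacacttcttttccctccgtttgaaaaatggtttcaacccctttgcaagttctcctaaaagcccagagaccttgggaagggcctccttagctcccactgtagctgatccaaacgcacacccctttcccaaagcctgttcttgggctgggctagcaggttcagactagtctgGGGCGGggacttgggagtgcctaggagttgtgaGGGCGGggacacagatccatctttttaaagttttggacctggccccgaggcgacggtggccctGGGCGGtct
*Alox5*, chr6:116461129-116461428, reverse strand: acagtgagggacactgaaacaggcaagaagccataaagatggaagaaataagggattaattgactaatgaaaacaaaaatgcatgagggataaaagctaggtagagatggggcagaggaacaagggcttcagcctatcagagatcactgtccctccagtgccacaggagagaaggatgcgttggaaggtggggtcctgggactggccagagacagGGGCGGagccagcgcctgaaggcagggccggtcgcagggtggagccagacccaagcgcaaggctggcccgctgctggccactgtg
*Alox12* had 3 GC boxes, 55 and 22 bases upstream of the start and 42 bases into the gene, and *Alox5* had 1, 35 bases upstream. GGGCGG occurs in 35.7% of all 32851 promoters of this length. The GATA letters AGATAA, present in 11.2% of promoters, were in none of the enzymes' promoters. TGTGGT, searched for the RUNX factors and present in 16.8%, was in those of *Ltc4s*, *Ptgs2* and *Hpgds*. The motifs do not overlap one another, and a match is not a binding site.

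Between 9321123 and 13385850 reads per library fell on genes, fewest in *Rpl22*+/+ replicate 3. *Rpl22* itself was counted 449, 527 and 546 times in the *Rpl22*-/- libraries against 6890, 7001 and 5031 in the *Rpl22*+/+ libraries, as the labels say. With edgeR's quasi-likelihood test and p-values adjusted by Benjamini-Hochberg, 5.57% of the 14004 genes tested had an adjusted p under 0.05, 3.28% higher and 2.29% lower in *Rpl22*-/- HSCs. Every *Rpl22*-/- library was above every *Rpl22*+/+ library for 13.3% of genes tested, and below for 13.6%. Defining HSC genes were present in all libraries, with *Kit* between 885 and 989 CPM (reads per 1000000 on genes, scaled by TMM) and *Slamf1*, the gene of CD150, between 40.6 and 63.5 CPM, while *Cd48* was between 4.88 and 7.30 CPM. Of the other markers listed as low by the sort, *Flt3* was between 35.7 and 56.0 CPM and *Itgam* between 9.03 and 13.3 CPM. That list, in which *Ptprc* of all leukocytes took most of the level, summed to 300.4 to 330.2 CPM in *Rpl22*-/- HSCs and 371.5 to 407.0 CPM in *Rpl22*+/+ HSCs, without overlap. HSCs themselves carry *Ptprc*, and *Flt3* was not among the markers of the sort, so this sum is no measure of sort purity. Of 10 HSC genes, 1 passed the test, where 5.57% of all genes tested did. This was *Fgd5*, with −0.41 on the log2 scale and an adjusted p of 0.0308, and it passed in 11 of 16 other fits. In 3 of the 10, *Fgd5*, *Mecom* and *Hlf*, every *Rpl22*-/- library was below every *Rpl22*+/+ library, and in 0 above. These are bulk libraries, in which fewer cells of a type and less RNA per cell cannot be told apart.

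The enzymes fell into a high and a low group. Levels between genes are compared here as CPM per kb of the longest protein-coding transcript, and the values that follow are levels. In *Rpl22*+/+ HSCs *Tbxas1* was the highest, with 123 ± 3.20 CPM per kb (SD, n = 3), followed by *Alox5ap* with 107 ± 7.22, *Lta4h* with 76.7 ± 6.71, *Ptgs1* with 51.5 ± 2.29 and *Pla2g4a* with 47.1 ± 0.875. These 5 enzymes had more CPM per kb than 88.5% to 97.0% of the genes tested, and they held 97.3% to 98.2% of all reads on the 10. The low group began with *Ltc4s* at 4.28 ± 0.578 CPM per kb, then *Hpgds* at 1.80 ± 0.176, *Alox5* at 1.25 ± 0.396 and *Alox12* at 0.974 ± 0.304. Of the genes tested, 23.8% had less CPM per kb than *Ltc4s* and 8.74% less than *Alox12*. *Ptgs2* was last at 0.0271 ± 0.0242. The *Rpl22*+/+ libraries of neighbours in this order did not overlap, except *Hpgds* with *Alox5* and *Alox5* with *Alox12*. With the length of all annotated exons in place of 1 transcript, the first 4 came in the order *Alox5ap*, *Ptgs1*, *Tbxas1* and *Lta4h*, and the other 6 kept their places.

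In *Rpl22*-/- HSCs the same 5 enzymes were the high ones. *Alox5ap*, at 120 ± 6.24 CPM per kb, and *Tbxas1*, at 118 ± 16.8, overlapped, as did *Ptgs1* and *Pla2g4a*. At the low end the order of the means differed from that of *Rpl22*+/+ HSCs. *Alox5* reached 2.59 ± 0.597 CPM per kb and had all 3 libraries above those of *Hpgds*, at 1.46 ± 0.292, while *Alox12*, at 1.62 ± 0.216, overlapped *Hpgds*. Summed over the 10 enzymes, the libraries held 804 to 869 CPM in *Rpl22*-/- HSCs and 831 to 833 CPM in *Rpl22*+/+ HSCs, so the totals overlapped.

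**Figure D1:**
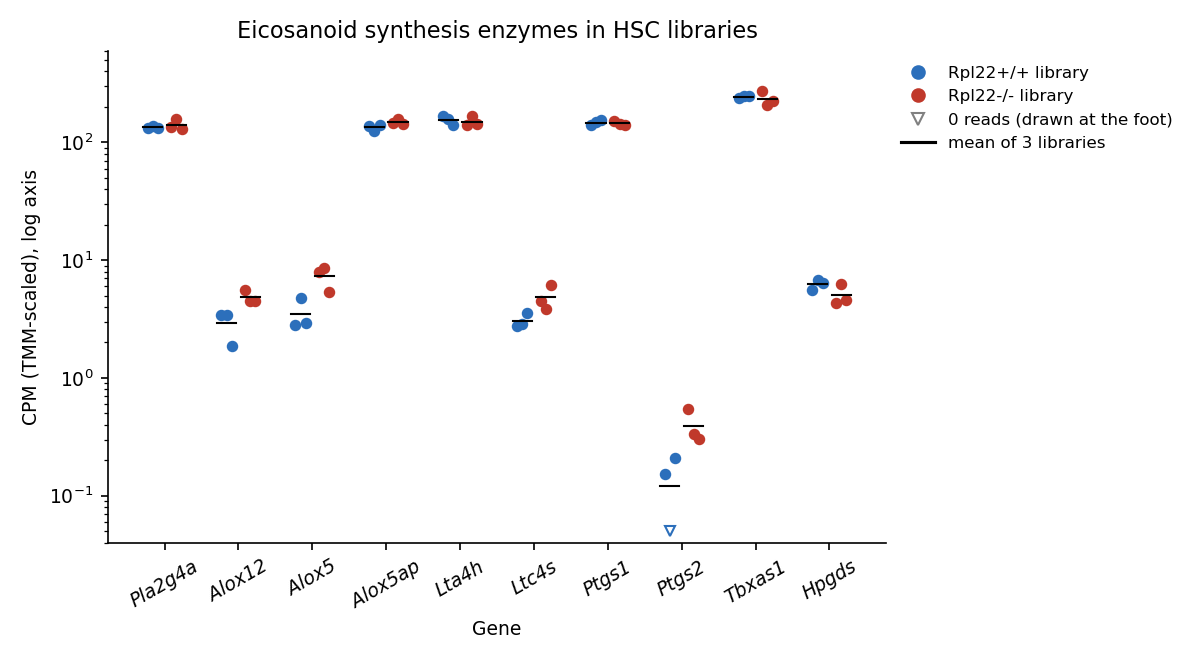
Level of each of the 10 enzymes in each library, in CPM on a log axis, with *Rpl22*+/+ libraries in blue, *Rpl22*-/- libraries in red and the mean of 3 libraries as a black line. A library with 0 reads is drawn as an open triangle at the foot. *Alox12*, *Alox5* and *Ltc4s* lie below 10 CPM with every red point above every blue one in the same gene, whereas the blue and red points of *Pla2g4a*, *Lta4h*, *Ptgs1* and *Tbxas1* share the range above 100 CPM.

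*Alox5*, the 5-lipoxygenase that starts leukotriene synthesis, was the 1 enzyme of 9 tested that passed, and it was higher in *Rpl22*-/- HSCs. That share is 11.1%, beside 5.57% of all genes tested in either direction and 3.28% in this one. *Rpl22*-/- replicates 1, 2 and 3 held 102, 103 and 71 of its reads, and the *Rpl22*+/+ replicates in the same order 37, 60 and 28, which is 7.94, 8.56 and 5.39 CPM against 2.84, 4.81 and 2.91 CPM. The groups did not overlap, but the lowest *Rpl22*-/- library and the highest *Rpl22*+/+ library, replicate 3 and replicate 2, were close. The fold change was 2.06, or 1.04 on the log2 scale (standard error 0.267, 95% interval 0.47 to 1.61, adjusted p = 0.0339). The call did not hold without *Rpl22*-/- replicate 2 (adjusted p = 0.113), *Rpl22*-/- replicate 3 (0.0561), *Rpl22*+/+ replicate 1 (0.142) or *Rpl22*+/+ replicate 3 (0.126). Over 16 other ways of fitting the counts its log2 fold change lay between 0.90 and 1.34 and its adjusted p between 0.000915 and 0.142. The gene lies on chromosome 6 from 116410077 to 116461178, reverse strand, and no other annotated gene overlaps it.

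*Alox12* did not pass. Its reads numbered 72, 54 and 59 in the *Rpl22*-/- replicates, in order, and 45, 43 and 18 in the *Rpl22*+/+ replicates, or 5.61, 4.49 and 4.48 CPM against 3.45, 3.45 and 1.87 CPM. Each *Rpl22*-/- library was above each *Rpl22*+/+ library, and *Rpl22*+/+ replicate 3, which also had the fewest reads in all, stood lowest. The fold change was 1.64, or 0.71 on the log2 scale, with a 95% interval of 0.11 to 1.31. The quasi-likelihood test gave a p of 0.0228 before adjustment and 0.149 after it. Without *Rpl22*+/+ replicate 3 the log2 value was 0.49, and over 16 other fits the adjusted p lay between 0.107 and 0.394. At 18 to 72 reads a library, that interval ran from near no change to more than 2-fold. No other annotated gene overlaps *Alox12* (chromosome 11, 70241457 to 70255353), and at most 0.339% of the 50-base windows of its transcript recur in any other gene's transcripts.

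The remaining lipoxygenases gave few reads. *Alox12b*, *Alox12e* and *Alox8*, which act mainly in skin, were at 0 in all 6 libraries, and *Aloxe3* had 0 to 2 reads a library. *Alox15*, the leukocyte-type lipoxygenase of macrophages, was read 3, 2 and 2 times in *Rpl22*-/- HSCs and 15, 21 and 2 times in *Rpl22*+/+ HSCs, under the minimum for a test. *Rpl22*+/+ replicate 3 was thus at the *Rpl22*-/- level. Fitted with no filter on low counts, *Alox15* came to −2.43 on the log2 scale, with a standard error of 0.782 and an adjusted p of 0.0326, a value that rests on these few reads. It also passed without *Rpl22*+/+ replicate 3 (adjusted p = 0.0444), but not without *Rpl22*-/- replicate 1, 2 or 3 (0.0606, 0.153 and 0.184), the fits in which a smaller group let it through the filter.

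*Alox5ap*, the membrane protein that presents arachidonic acid to *Alox5*, was abundant and nearly level. Its values were 147, 159 and 144 CPM in *Rpl22*-/- HSCs and 138, 124 and 141 CPM in *Rpl22*+/+ HSCs. Although these did not overlap, the closest libraries were 144 and 141 CPM, and the log2 fold change of 0.16 (95% interval −0.019 to 0.34) had an adjusted p of 0.280. Per length, its RNA exceeded that of *Alox5* by 85.9 times in *Rpl22*+/+ HSCs and 46.3 times in *Rpl22*-/- HSCs.

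Among the enzymes that consume leukotriene A4, *Lta4h* was far more abundant than *Ltc4s*, and neither passed. *Lta4h*, the hydrolase, had 141, 167 and 143 CPM in *Rpl22*-/- HSCs and 167, 159 and 141 CPM in *Rpl22*+/+ HSCs, which overlap throughout. It differed by −0.051 on the log2 scale (95% interval −0.25 to 0.15, adjusted p = 0.803). *Ltc4s*, the glutathione-conjugating synthase, had 58, 46 and 81 reads in *Rpl22*-/- HSCs and 36, 36 and 34 in *Rpl22*+/+ HSCs, or 4.52, 3.82 and 6.15 CPM against 2.76, 2.89 and 3.53 CPM. All 3 *Rpl22*-/- libraries were above, with replicate 3 the highest. *Ltc4s* came to 0.67 on the log2 scale (standard error 0.271, 95% interval 0.093 to 1.24, adjusted p = 0.158), and 0.46 without *Rpl22*-/- replicate 3. An antisense gene, *Gm26542*, shares 268 exonic bases with *Ltc4s*, and reads from the 2 cannot be told apart without strand.

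Upstream and in the cyclooxygenase branch no enzyme passed, and the intervals were narrow for the abundant ones. *Pla2g4a*, the phospholipase, had 134, 157 and 130 CPM in *Rpl22*-/- HSCs and 133, 137 and 134 CPM in *Rpl22*+/+ HSCs. It differed by 0.058 on the log2 scale (95% interval −0.13 to 0.25, adjusted p = 0.751). *Ptgs1*, the constitutive cyclooxygenase, had 151, 143 and 141 CPM against 141, 148 and 154 CPM, a log2 fold change of −0.025 (95% interval −0.20 to 0.15, adjusted p = 0.892). *Tbxas1*, which makes thromboxane A2, had 273, 209 and 225 CPM against 237, 247 and 249 CPM, with *Rpl22*-/- replicate 1 above and replicates 2 and 3 below the *Rpl22*+/+ range. Its log2 fold change was −0.053 (95% interval −0.26 to 0.16, adjusted p = 0.804). For each of *Pla2g4a*, *Lta4h*, *Ptgs1* and *Tbxas1* the 95% interval lay between −0.26 and 0.25 on the log2 scale, and a single library decided the sign of each. Without *Rpl22*-/- replicate 2 the value of *Pla2g4a* was −0.029 and that of *Tbxas1* 0.026, without *Rpl22*+/+ replicate 1 that of *Lta4h* was 0.0059, and without *Rpl22*+/+ replicate 3 that of *Ptgs1* was 0.0043.

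*Hpgds*, the prostaglandin D synthase of blood cells, had 56, 75 and 61 reads in *Rpl22*-/- HSCs and 73, 85 and 61 in *Rpl22*+/+ HSCs, or 4.36, 6.24 and 4.63 CPM against 5.60, 6.81 and 6.34 CPM. Of the low enzymes tested it alone had a negative log2 fold change, −0.30 (95% interval −0.78 to 0.17, adjusted p = 0.457), and its groups overlapped. *Ptgs2*, the inducible cyclooxygenase, had 7, 4 and 4 reads in *Rpl22*-/- HSCs and 2, 0 and 2 in *Rpl22*+/+ HSCs. These 15 and 4 reads in all were under the minimum count for a test. Fitted with no filter on low counts, *Ptgs2* came to 1.69 on the log2 scale, with an adjusted p of 0.487. Reads from antisense or opposite-strand genes could enter *Ptgs1* (148 shared exonic bases), *Tbxas1* (144) and *Alox5ap* (189) in the same way as for *Ltc4s*.

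Over the 9 enzymes tested, 5 log2 fold changes were above 0 and 4 below, the median was 0.058 against −0.0068 over all genes tested, 1 passed in the higher direction and 0 in the lower. In 4 of the 9, namely *Alox5*, *Alox12*, *Ltc4s* and *Alox5ap*, the *Rpl22*-/- libraries were all above the *Rpl22*+/+ libraries, as they were for 13.3% of all genes tested. With 3 libraries against 3, an exact two-sided permutation test cannot go below 0.1 for a single gene.

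**Figure D2:**
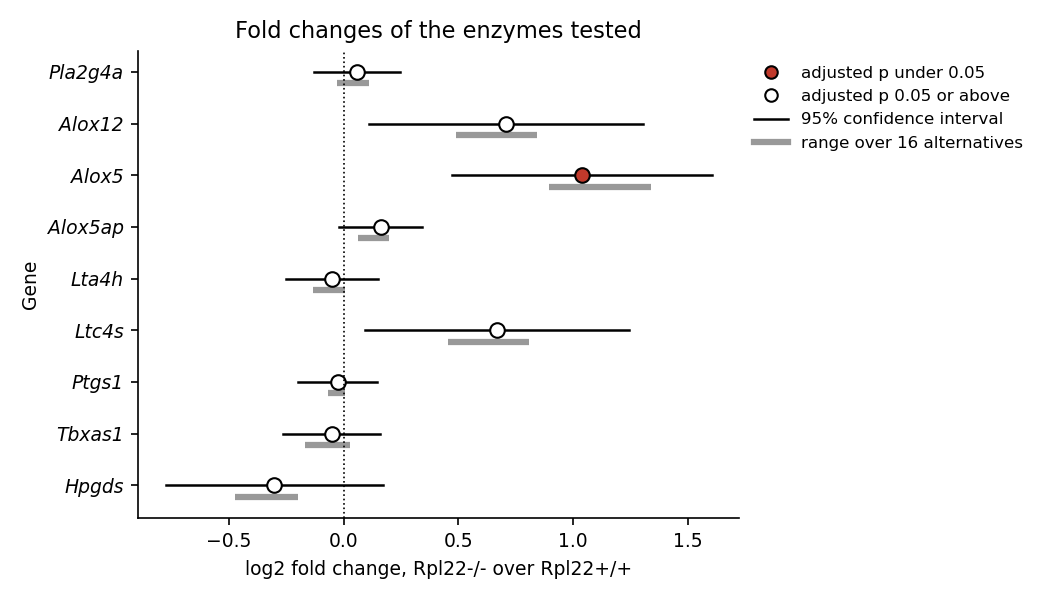
Log2 fold change of the 9 enzymes tested, *Rpl22*-/- over *Rpl22*+/+ HSCs, with 95% confidence intervals as black lines and the range over 16 other fits as grey bars. *Alox5*, in red, has an adjusted p under 0.05. *Alox12* and *Ltc4s* have intervals wholly above 0 but adjusted p-values above 0.05, and the grey bars of *Pla2g4a*, *Lta4h*, *Ptgs1* and *Tbxas1* reach both sides of 0.

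The profile of *Alox12* over the 6 libraries was compared with that of every tested gene of like abundance. Distance was the root mean square difference of the centred log2 CPM, over 2153 genes whose mean log2 CPM was within 1 of *Alox12*. The 5 nearest were *AC109221.1* at 0.133, *1810024B03Rik* at 0.152, *Exoc3l4* at 0.174, *Gm16141* at 0.183 and *Gm17494* at 0.201. All 5 were lowest in *Rpl22*+/+ replicate 3. *AC109221.1*, for example, had 118, 116 and 120 reads in *Rpl22*-/- HSCs and 81, 76 and 37 in *Rpl22*+/+ HSCs. Of the other enzymes *Alox5* was the nearest, at 0.359, and *Hpgds* the farthest, at 0.647.

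Beyond the 10 enzymes, 71 genes that release arachidonic acid or make, move, sense or break down its products were examined, of which 44 were tested and 10 were at 0 in all libraries. Of the 44, 28 had log2 fold changes above 0 and 16 below, with a median of 0.067. The adjusted p was under 0.05 for 4, all higher in *Rpl22*-/- HSCs, and for 0 lower. That is 9.09% of those tested, where 5.57% of all genes tested passed. In 13 of the 44 the *Rpl22*-/- libraries were all above, and in 2 all below, where the shares of all genes tested were 13.3% and 13.6%.

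The largest of these changes was that of *Slco2a1*, the prostaglandin transporter that takes prostaglandins into cells. It had 96, 116 and 145 reads in *Rpl22*-/- HSCs and 49, 34 and 43 in *Rpl22*+/+ HSCs, or 9.37 ± 1.78 CPM against 3.65 ± 0.877 CPM (SD, n = 3), without overlap. *Slco2a1* thus differed by 1.37 on the log2 scale (standard error 0.236, 95% interval 0.87 to 1.87, adjusted p = 0.00566). The call held in 15 of 16 other fits, and the adjusted p was 0.0505 without *Rpl22*-/- replicate 3. The exporter *Abcc4*, which carries prostaglandins out of cells, differed by 0.11 on the log2 scale, with an adjusted p of 0.505.

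The receptor *Ptger3*, which binds prostaglandin E2, rose as well. Its libraries had 46.6, 55.5 and 54.0 CPM in *Rpl22*-/- HSCs and 35.0, 39.7 and 35.8 CPM in *Rpl22*+/+ HSCs, and did not overlap. For *Ptger3* this is 0.50 on the log2 scale, with a standard error of 0.105 and an adjusted p of 0.0150, and the call was lost without *Rpl22*-/- replicate 3 or *Rpl22*+/+ replicate 1 or 3 (adjusted p 0.0588 to 0.0797). Of 8 receptors tested, 6 had values above 0, and *Ptger3* was the 1 that passed. The prostacyclin receptor *Ptgir* had 15, 28 and 20 reads against 13, 10 and 8, with a log2 fold change of 0.91 and an adjusted p of 0.217. *Gpr31b*, a receptor for 12-HETE that was named after its values were seen, had 19, 19 and 22 reads against 21, 27 and 14, a log2 difference of −0.15 with an adjusted p of 0.841.

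The selenium-dependent glutathione peroxidases *Gpx1* and *Gpx4*, which reduce lipid hydroperoxides such as those made by lipoxygenases, were the other pair that passed. *Gpx1* had 380, 484 and 390 CPM in *Rpl22*-/- HSCs and 307, 298 and 291 CPM in *Rpl22*+/+ HSCs, or 0.48 more on the log2 scale, with standard error 0.0993 and an adjusted p of 0.0133. *Gpx4* had 214, 266 and 234 CPM against 180, 170 and 172 CPM, or 0.45 more on the log2 scale, with standard error 0.0923 and an adjusted p of 0.0131. *Rpl22*-/- replicate 2 was the highest library for both, and neither gene's groups overlapped. *Gpx1* lost its call without any 1 of the *Rpl22*+/+ replicates (adjusted p 0.0578 to 0.0624), and *Gpx4* did so too and also without *Rpl22*-/- replicate 3 (0.0551 to 0.0657). After correction of each library for gene length the log2 values were 0.38 and 0.37, and both still passed.

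The other groups had no gene past the threshold. Of 12 tested for the release and return of arachidonic acid, 8 were above 0 and 4 below. The smallest p-values there belonged to *Pla2g6*, a calcium-independent phospholipase (log2 fold change 0.32, adjusted p = 0.0823), and *Acsl4*, which activates arachidonic acid for return to membranes (−0.29, adjusted p = 0.0964, and 0.0261 without *Rpl22*-/- replicate 1). Of 9 tested for prostanoid synthesis and breakdown, 6 were above 0 and 3 below. *Akr1b3*, an aldo-keto reductase with prostaglandin F synthase activity, came to 0.31 with an adjusted p of 0.0617, and passed in 5 of 16 other fits. *Ptges3*, a co-chaperone also described as a prostaglandin E synthase, had −0.18 (adjusted p = 0.317). Of 4 genes for leukotriene metabolism 1 was above 0 and 3 below, with *Cyp4f16* at −0.051 (adjusted p = 0.852) and *Ggt5* at 0.049 (adjusted p = 0.893). Of 3 nuclear receptors, *Rxrb* had 0.13 (adjusted p = 0.413) and *Rxra* −0.20 (adjusted p = 0.460).

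**Figure D3:**
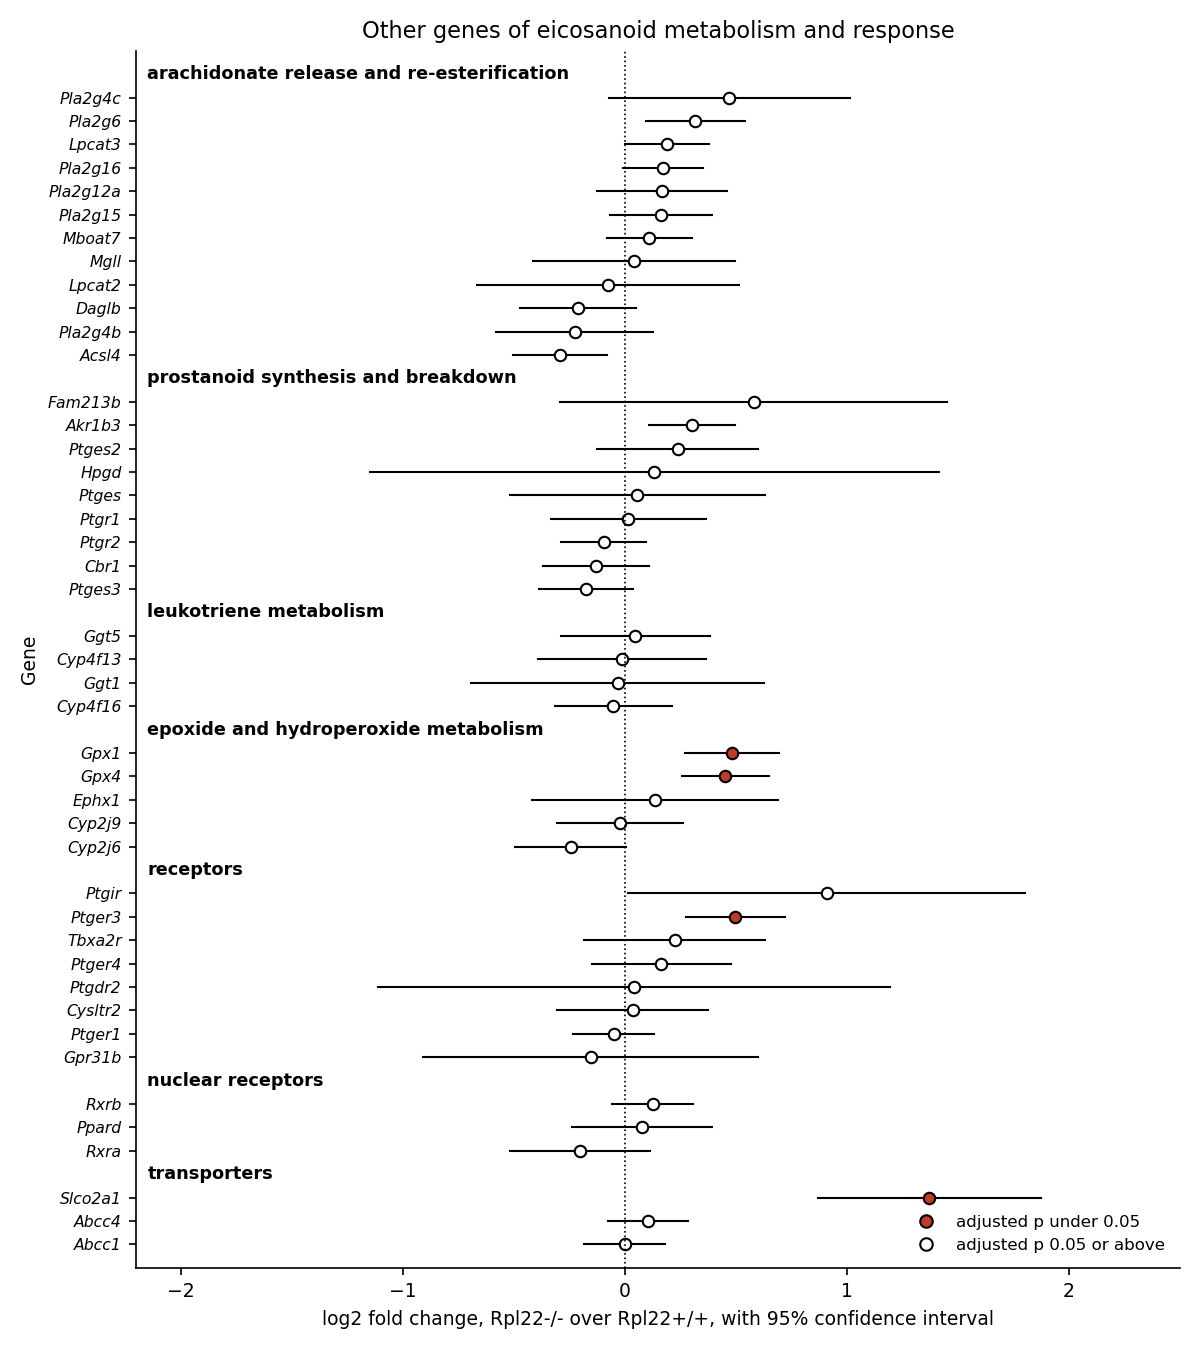
Log2 fold change, *Rpl22*-/- over *Rpl22*+/+ HSCs, with its 95% confidence interval for the 44 further genes tested, grouped by role and ordered by size within each role. *Gpx1*, *Gpx4*, *Ptger3* and *Slco2a1*, in red, are those with an adjusted p under 0.05, and each lies to the right of 0.

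Because platelets and megakaryocytes carry *Alox12*, *Tbxas1* and *Ptgs1*, their markers were read in the same libraries. Of 14 megakaryocyte and platelet genes tested all 14 had log2 fold changes above 0, with a median of 0.57. In the higher direction 9 passed, where 3.28% of all genes tested did. They were led by *Gp5* (0.77, adjusted p = 0.00237), *Treml1* (0.79, adjusted p = 0.00441) and *Selp* (0.81, adjusted p = 0.00465). *Gp6* was at 0 in all libraries. The summed level of the list was 1579 to 1840 CPM in *Rpl22*-/- HSCs and 1104 to 1465 CPM in *Rpl22*+/+ HSCs, without overlap. *Itga2b*, *Plek*, *Vwf* and *Pf4* took most of this level, and of these *Plek*, *Vwf* and *Pf4* each overlapped between the genotypes. Many of these genes, *Itga2b* and *Vwf* among them, are also expressed by HSCs. Per 1000 CPM of this list, *Alox12* came to 3.05, 2.46 and 2.83 CPM in *Rpl22*-/- HSCs and 2.90, 2.35 and 1.70 CPM in *Rpl22*+/+ HSCs, which overlap. *Alox5* came to 4.32, 4.70 and 3.41 CPM against 2.38, 3.28 and 2.64 CPM, with all *Rpl22*-/- libraries above. On the same measure *Slco2a1* came to 4.06, 5.29 and 6.97 CPM against 3.16, 1.86 and 4.05 CPM, so that its closest libraries were all but equal, while *Ltc4s* and *Ptger3* overlapped. *Tbxas1* and *Ptgs1*, as given above, overlapped in CPM. The part of megakaryocyte RNA in any of these values was not tested.

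**Figure D4:**
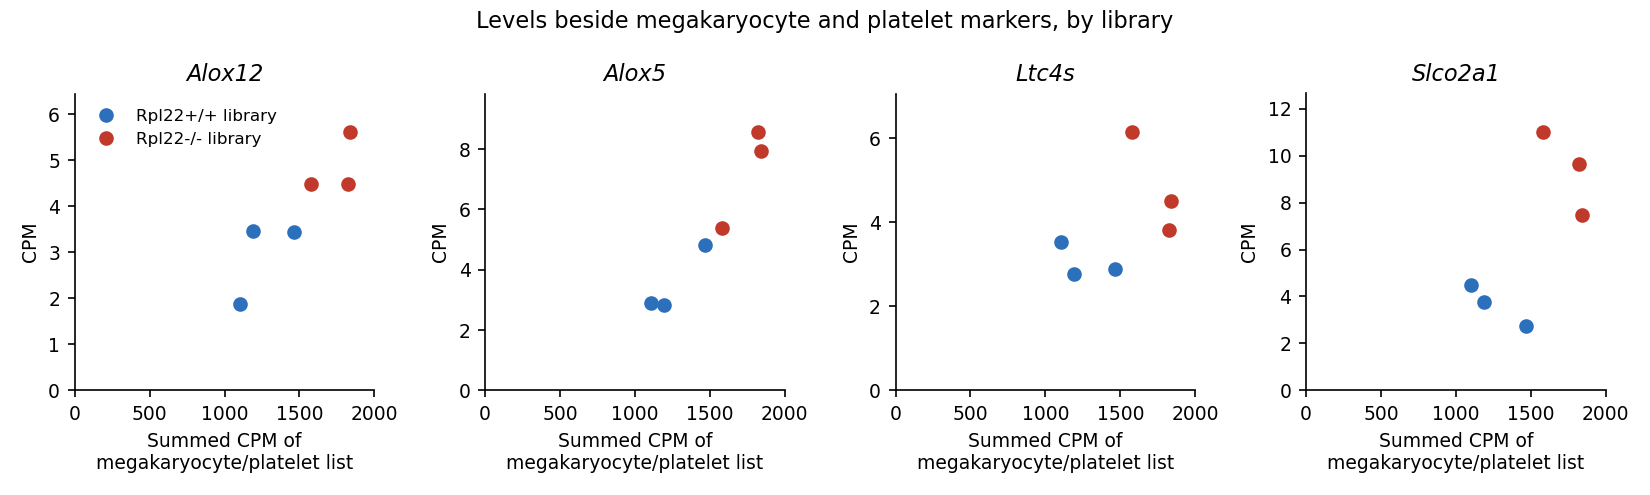
CPM of *Alox12*, *Alox5*, *Ltc4s* and *Slco2a1* in each library, on linear axes from 0, against the summed CPM of the megakaryocyte and platelet list in the same library, with *Rpl22*+/+ libraries in blue and *Rpl22*-/- libraries in red. The red points lie to the right of the blue ones in each panel, at 1579 to 1840 CPM against 1104 to 1465 CPM, and above them.

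Markers of other cell types that make eicosanoids were read as well. Of 10 mast cell and basophil genes *Mcpt4*, *Cma1*, *Tpsb2* and *Tpsab1* were at 0 in all libraries, and the list summed to 5.99 to 12.1 CPM in *Rpl22*-/- HSCs and 6.83 to 7.70 CPM in *Rpl22*+/+ HSCs. *Cpa3* took most of this level and was the 1 gene tested, with 0.32 on the log2 scale and an adjusted p of 0.408. The highest sum was in *Rpl22*-/- replicate 2, where *Mcpt8* had 17 reads. Of 10 neutrophil genes tested 9 had log2 fold changes above 0, *Prtn3* among them with 0.081, and *S100a8* had −0.21. In the higher direction 2 passed, where 3.28% of all genes tested did. They were *Ctsg* (2.85, adjusted p = 0.0282) and *Camp* (2.43, adjusted p = 0.0291), each in 9 of 16 other fits as well. Their reads were few and uneven. *Ctsg* had 28, 163 and 48 in *Rpl22*-/- HSCs against 1, 10 and 19 in *Rpl22*+/+ HSCs, and *Camp* 11, 31 and 47 against 10, 2 and 3. The neutrophil list summed to 101 to 227 CPM in *Rpl22*-/- HSCs and 66.9 to 106 CPM in *Rpl22*+/+ HSCs, with the highest value in *Rpl22*-/- replicate 2, where *Alox5* was highest too. Without that library the log2 fold change of *Alox5* was 0.91 and its adjusted p 0.113, beside 0.90 and 0.142 without *Rpl22*+/+ replicate 1. The list was at 106 CPM in *Rpl22*+/+ replicate 3, where *Alox5* had 2.91 CPM. In *Rpl22*-/- replicates 1 and 3 the list was at 109 and 101 CPM, and *Alox5* at 7.94 and 5.39 CPM. Per 1000 CPM of the neutrophil list *Alox5* overlapped between the genotypes, at 37.8 to 72.7 CPM and 27.5 to 71.9 CPM. On this measure *Alox12*, *Ltc4s*, *Slco2a1* and *Ptger3* overlapped as well. The list itself ranged from 66.9 to 227 CPM, a spread that enters each of these ratios, so no conclusion is drawn from them. No gene passed among the monocyte and macrophage markers, at 196 to 258 CPM against 204 to 221 CPM, most of it *Lyz2*. The lymphocyte markers summed to 63.1 to 67.2 CPM against 49.5 to 54.5 CPM, without overlap, and *Ms4a1* and *Cd3e* were at 0. Only 2 of these 8 genes were tested, *Cd79b* and *Nkg7*. Neither passed, but both had all *Rpl22*-/- libraries above. The erythroid markers, with 4 of 8 genes tested, had no gene past the threshold either. Their sums, 35.8 to 39.6 CPM against 32.0 to 33.3 CPM, did not overlap, so a higher sum is not particular to the megakaryocyte list. The part of these cells' RNA in the values of the enzymes was not tested.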

How the data were processed

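RNA of sorted HSCs was measured in 3 *Rpl22*-/- and 3 *Rpl22*+/+ libraries, grouped by the genotype in the labels. The authors aligned reads to mm10 with TopHat2 2.1.1, counted them on genes with HTSeq, and deposited the raw counts, as whole numbers with no normalization. Which strand and annotation HTSeq used is not given in the sources used here. The last 5 lines, reads assigned to no gene (58.6% to 60.9% of each library), were left out, which left 9321123 to 13385850 counts on genes. These totals limit the precision of genes with few reads. Unused columns of samples numbered 0.

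Genes were filtered by filterByExpr of edgeR 4.0.16 (R 4.3.3; minimum count 10), leaving 14004, and libraries were scaled by TMM. Genotypes were compared by the quasi-likelihood test, and p-values were adjusted over the 14004 genes by Benjamini-Hochberg (threshold 0.05). A standard error is the size of the log2 fold change divided by the square root of F. Lengths and positions come from GENCODE M21 (GRCm38), in which 30921 symbols were matched, and promoters from RefSeq (GRCm38.p6). The 16 alternatives were 3 other scalings, DESeq2 1.42.0, limma-voom 3.58.1, 2 other filters, each library left out, a term for replicate number, and a per-library correction for gene length (lowess, span 0.3) with and without that term. Python 3.11.15, pandas 2.3.3, numpy 2.4.6 and matplotlib 3.10.9 were used.

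The enzymes, the list of 71 further genes, the marker lists and the motifs were chosen with earlier results of these data known. *Fam213b* was found under the symbol *2810405K02Rik*, which was added after the table was read, and *Ptgdr2* under *Gpr44*. The genes named are the 10 enzymes, *Rpl22*, every further gene past the threshold and the 2 with the smallest p in each role, up to 3 past the threshold per marker list with the defining markers at 0, and the 5 genes nearest to *Alox12*. Others are named as examples.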

Additional observations from a re-analysis of the deposited data

How the results depend on the processing

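The count of genes past the threshold was 780, and it was 1422 with no filter on low counts and 127 to 1720 when single libraries were left out (lowest without *Rpl22*-/- replicate 3, highest without *Rpl22*-/- replicate 1). DESeq2 gave 1057 and limma-voom 742. Scaling by library size alone gave 850, of which 43.4% were higher without *Rpl22*, where TMM gave 58.8%, and it moved the median of all genes to −0.051. Of the enzymes 1 passed in each fit on all 6 libraries, and 0 to 1 when single libraries were left out. Of the 71 further genes 4 to 6 passed on all 6 libraries and 1 to 5 with single libraries left out. *Alox5* then had log2 fold changes of 0.90 to 1.34. Signs turned for *Pla2g4a* (−0.029 to 0.11), *Lta4h* (−0.13 to 0.0059), *Ptgs1* (−0.058 to 0.0043), *Tbxas1* (−0.17 to 0.026), *Cyp4f16* (−0.14 to 0.063) and *Ggt5* (−0.073 to 0.18) when single libraries were left out, for *Cyp4f16* without *Rpl22*-/- replicate 2 and for *Ggt5* without *Rpl22*-/- replicate 3 or *Rpl22*+/+ replicate 2. That of *Tbxas1* also turned with the length trend removed (0.012), and with the replicate block added to that (0.0048). *Alox12*, *Alox5ap*, *Ltc4s* and *Hpgds* kept their sign and had adjusted p-values above 0.05 in each of the 16 alternatives.

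No pairing by replicate number was seen. The deviations of samples with the same number had correlations of −0.10, 0.055 and 0.045, and not every sample correlated best with its own number. With so few libraries such correlations cannot exclude a shared preparation, on which the labels are silent. With a replicate block 904 genes passed, including the same count of enzymes, 1, and 5 of the 71 further genes, *Akr1b3* being the one added (adjusted p = 0.0457). Depth limits *Ptgs2*, *Alox15* and the other genes under the minimum count, which were tested only where the filter was dropped or a group was smaller.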
